A study of Ovis aries with 32 samples.

Results

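The glucocorticoid receptor gene (NR3C1) and the genes of the cortisol-converting enzymes (HSD11B1 and HSD11B2) were followed in the hearts of 14-day-old lambs. Members were taken by gene name, as the probes that the array files or the reference gene table name NR3C1, HSD11B1 or HSD11B2, together with the probe A_70_P046971. That probe has no gene name in the files, and its place here rests on the study's list of genes changed in the left ventricle. These are 3 of 857 named genes and 6 of 15008 probes. All 6 probes passed the brightness limit in both tissues, which asks for a signal over 10% above the 95th percentile of the negative controls on 8 or more of the 16 arrays, and none was saturated. Levels are log2 spot intensities, corrected for background and quantile normalized within a tissue.

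Cortisol acts on a cell through the glucocorticoid receptor, which chaperones hold in the cytosol until it binds the hormone and moves to the nucleus to switch genes on and off. The enzyme from HSD11B1 regenerates cortisol from inactive cortisone inside the cell, and the enzyme from HSD11B2 does the reverse. The latter is best known from the kidney and placenta, where it keeps cortisol away from the mineralocorticoid receptor and from the fetus. In heart muscle the glucocorticoid receptor takes part in maturation before birth, and the mineralocorticoid receptor, which also binds cortisol, is present beside it.

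RNA from the free wall of the left ventricle (LV) and from the interventricular septum (IVS) was hybridised to 1-colour Agilent sheep arrays, 1 tissue of 1 lamb per array and 32 arrays in all. The CORT group held 8 lambs whose mothers received cortisol at 0.5 mg/kg/day overnight, from late pregnancy until birth, and the Control group held 8 lambs of untreated ewes. No lamb was given cortisol directly. By the study's methods both CORT and Control ewes had twins among their lambs, so some lambs may share a mother, and the lambs of either group were of both sexes; which arrays these are was not known here. In these bulk samples fewer cells of a type and less RNA per cell cannot be told apart.

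The LV arrays lay on slides 1 and 2 with 4 arrays of each group on either, and the IVS arrays on slides 3, 4 and 5. There were 2 arrays of each group on slide 3, 3 Control with 2 CORT arrays on slide 4, and 3 Control with 4 CORT arrays on slide 5. In the IVS, 6 arrays stood apart from the rest, those of Control lambs 1, 2, 3 and 8 and of CORT lambs 1 and 2. On these, 2.58 to 4.96% of all probes lay more than 1 log2 unit from the median of the tissue, against 0.282 to 0.608% on the other IVS arrays. The IVS differences between CORT and Control are therefore given also without these arrays, without Control lambs 1 to 3, or both. The heart muscle genes MB (myoglobin) and MYH7 (a myosin heavy chain) read 18.03 ± 0.24 and 11.60 ± 0.29 (SD, n = 8) in Control LV on the log2 scale, and 18.22 ± 0.35 and 11.46 ± 0.59 in Control IVS. Of the 16 heart muscle markers listed, only these 2 have a named probe on the array. Here and below, a marker or listed gene with several tested probes is read on the brightest, unless another is named.

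What each probe reads is set by its sequence of 60 bases, printed 5′ to 3′ as deposited. For NR3C1 the named probe is shown whole and the unnamed probe by its first 30 bases, because the results turn on whether both read the same messenger RNA.
A_70_P016896: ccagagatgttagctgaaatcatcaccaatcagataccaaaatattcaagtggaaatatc
A_70_P046971: agacaagtgcactttgttgttaaaagaaaa
The files place A_70_P016896 at bases 2259 to 2318 of the sheep NR3C1 mRNA. Its bases read through without a stop in 1 frame only, and that frame is the receptor's coding sequence close to its carboxyl end. A_70_P046971 was designed on an expressed sequence tag, at its bases 765 to 824, and where that tag lies relative to the NR3C1 mRNA was not analysed here. The 60 bases of A_70_P046971 also read through without a stop in 1 frame only, so an open frame does not set the named probe apart. In the authors' matrices of normalized values, 1 for each tissue, its row stands next to that of A_70_P016896, as the rows of 91.9% of the genes with 2 named probes do in the LV and of 92.5% in the IVS. How many neighbouring rows belong to different genes was not counted. The matrices and the list come from the same authors, so the row order does not settle what the probe reads.

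The probes of the enzyme genes are better placed. Those of HSD11B1 lie at bases 1151 to 1210 (A_70_P051222) and 1273 to 1332 (A_70_P051221) of its mRNA, with 62 bases between them, so they are separate readings of the transcript. Those of HSD11B2 are nearly the same probe. They lie at bases 1771 to 1830 and 1770 to 1829 of its mRNA and share 59 bases. The last 30 bases of each hold the letters AATAAA, those of the canonical polyadenylation signal, shown here in capitals.
A_70_P051181: gacactttttgAATAAAgataaatttttat
A_70_P051182: tgacactttttgAATAAAgataaattttta
The letters AATAAA are present, on the strand printed, in 845 of the 15008 probes (5.63%).

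**Figure D1:**
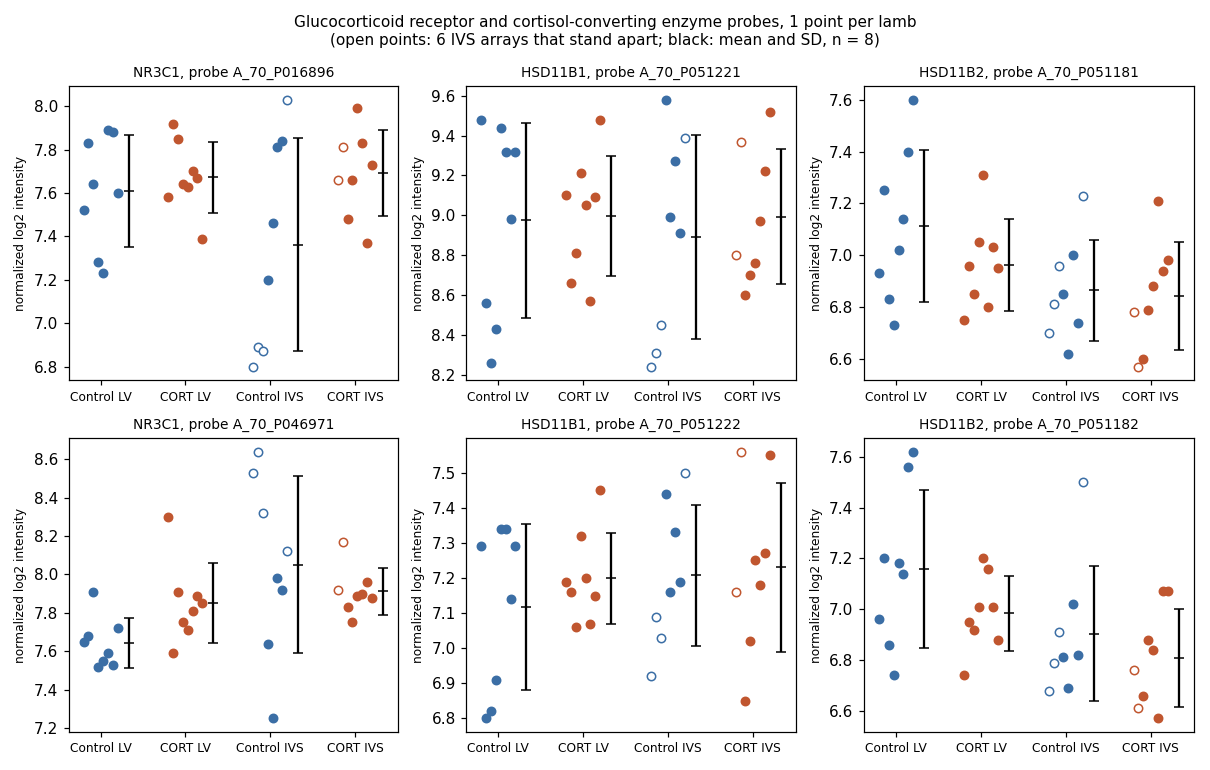
Normalized log2 intensity of the 6 probes (vertical axis, its own range in each panel) in the 4 groups, 1 point per lamb in the order of the lamb numbers, with the mean and SD (n = 8) in black beside them. Blue points are Control and orange points CORT lambs, and open points are the 6 IVS arrays that stand apart. The groups overlap in every panel, and in the IVS the Control lambs 1, 2 and 3 are the lowest for A_70_P016896 and the highest for A_70_P046971.

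In the LV, 1 of the 2 probes assigned to NR3C1 had an unadjusted p under 0.05, and neither passed after adjustment. On the unnamed probe A_70_P046971 the log2 level spanned 7.52 to 7.91 among Control lambs (median 7.62) and 7.59 to 8.30 among CORT lambs (median 7.83). Of the 8 CORT lambs, 7 lay above the Control mean, and 6 lay inside the Control range. The means were 7.64 ± 0.13 and 7.85 ± 0.21 (SD, n = 8 each), a difference of 0.21 (SE 0.086), or 1.16-fold with a 95% confidence interval from 1.02 to 1.31. The moderated test of limma gave an unadjusted p = 0.0257 and a Benjamini-Hochberg adjusted p = 0.999 over all probes, and the two-sided exact permutation test gave p = 0.0214. This probe is counted as NR3C1 because the study listed the gene as higher in these LV samples, so its p is not independent evidence of the direction.

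The difference on A_70_P046971 was 0.20 within slide 1 and 0.22 within slide 2. The highest value, 8.30, was that of CORT lamb 1, and without this lamb the difference was 0.14 (limma p = 0.0467, exact permutation p = 0.0429). In the whole LV comparison, 444 of 11518 probes (3.85%) had an unadjusted p under 0.05 by limma and 0 (0%) an adjusted p under 0.05. Of the 6 member probes, 1 was among those 444, A_70_P046971, which was taken from the study's list of genes changed in these samples. Of all the cell type markers tested in the same lambs, 2 were lower in CORT by unadjusted p. These were 1 of the 3 fibroblast markers and 1 of the 2 immune markers. No tested marker of adipocytes (3), endothelium (4), erythrocytes (1), smooth muscle (1) or heart muscle (2) had an unadjusted p under 0.05. The erythrocyte marker was HBB, with a difference of 0.24 (exact permutation p = 0.759). HBA1, another erythrocyte marker, has no named probe here, and the study lists it as lower in CORT LV. Among these, CNN1 of smooth muscle differed by 0.44 (exact permutation p = 0.302) and MYH7 by -0.23 (exact permutation p = 0.177). The endothelial markers differed by -0.01 to 0.15. COL3A1, a fibroblast collagen, had a log2 difference of -0.28 (exact permutation p = 0.0207). CD14, of monocytes and macrophages, had low levels of 7.46 ± 0.17 in Control and 7.29 ± 0.10 in CORT lambs. It differed by -0.16 (exact permutation p = 0.0263). Both COL3A1 and CD14 had a limma adjusted p = 0.999. The fibroblast markers COL1A2 and DCN differed by -0.21 (exact permutation p = 0.085) and 0.08 (exact permutation p = 0.500), and the T cell marker CD3E by 0.15 (exact permutation p = 0.674). The mean log2 level of the 3 fibroblast markers tested ran from 10.53 to 11.18 in Control and from 10.39 to 10.80 in CORT lambs, and that of the 2 immune markers tested from 6.58 to 7.74 and from 7.17 to 7.42. Their part in the NR3C1 difference was not tested.

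The probe that the files name NR3C1 (A_70_P016896) spanned 7.23 to 7.89 in Control LV (median 7.62) and 7.39 to 7.92 in CORT LV (median 7.65). The Control lambs 4 and 5, at 7.28 and 7.23, were the lowest of the 16, and 7 of the 8 CORT lambs lay within the Control range. The difference was 0.06 (SE 0.10, 95% confidence interval -0.15 to 0.28, limma p = 0.541, adjusted p = 0.999, exact permutation p = 0.564). It was 0.18 within slide 1 and -0.05 within slide 2. The interval of this probe holds the difference that the other probe showed, and the change of the within-array difference between the 2 probes was 0.14 between CORT and Control (two-sided exact permutation p = 0.334).

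In the IVS the group means of the 2 NR3C1 probes differed in opposite directions, and neither difference passed the test. A_70_P016896 spanned 6.80 to 8.03 among Control lambs (median 7.33) and 7.37 to 7.99 among CORT lambs (median 7.69). All 8 CORT lambs lay above the Control mean of 7.36 ± 0.49, with a CORT mean of 7.69 ± 0.20 (SD, n = 8 each). All 8 also lay within the Control range. The difference was 0.33 (SE 0.18, 95% confidence interval -0.04 to 0.70), with a limma p = 0.0779, an adjusted p = 0.993 and an exact permutation p = 0.101. Leaving out Control lamb 6, 7 or 8, the highest of the group, gave differences of 0.39, 0.40 and 0.42, with an unadjusted limma p under 0.05 in each case and an exact permutation p = 0.0614, 0.0566 and 0.0331.

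A_70_P046971 spanned 7.25 to 8.64 in Control IVS (median 8.05) and 7.75 to 8.17 in CORT IVS (median 7.90). Of the 8 CORT lambs, 7 lay below the Control mean of 8.05 ± 0.46, and the CORT mean was 7.91 ± 0.12 (SD, n = 8 each). The difference was -0.14 (SE 0.16, 95% confidence interval -0.47 to 0.20, limma p = 0.401, adjusted p = 0.993, exact permutation p = 0.438). In the whole IVS comparison, 419 of 11685 probes (3.59%) had an unadjusted p under 0.05 by limma, none of them a member, and 0 (0%) an adjusted p under 0.05. No cell type marker tested in the IVS had an unadjusted limma p under 0.05. Of the fibroblast markers, DCN differed by 0.18 (exact permutation p = 0.0448, limma adjusted p = 0.993), COL3A1 by 0.10 and COL1A2 by -0.02. These were not followed without the arrays that stand apart.

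Control lambs 1, 2 and 3 lay at opposite ends of the 2 probes in the IVS. These were the lowest of the 16 lambs on A_70_P016896, at 6.80, 6.89 and 6.87, where no other lamb was below 7.20. On A_70_P046971 the same lambs were the highest, at 8.53, 8.64 and 8.32, where no other lamb was above 8.17. At the other ends, Control lamb 5 was the lowest on A_70_P046971 (7.25, with a difference of -0.25 without it) and Control lamb 8 the highest on A_70_P016896 (8.03). The uncorrected spot intensities of Control lambs 1, 2 and 3 on A_70_P046971 were 498, 683 and 406, against 123 to 272 on the other 13 IVS arrays. Lambs 1 and 2 lie on slide 3 and lamb 3 on slide 4, and all 3 are among the arrays that stand apart. The CORT lambs 1 and 2 of slide 3, which also stand apart, read 7.66 and 7.81 on A_70_P016896 and 7.92 and 8.17 on A_70_P046971.

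Without these 3 lambs the difference between CORT and Control on A_70_P016896 was 0.02 (SE 0.14, 95% confidence interval -0.27 to 0.32, exact permutation p = 0.885, with 5 Control and 8 CORT lambs). That on A_70_P046971 changed sign to 0.13 (SE 0.13, exact permutation p = 0.375). Without all 6 arrays that stand apart the differences were 0.10 (exact permutation p = 0.552) and 0.17 (exact permutation p = 0.267), with 4 Control and 6 CORT lambs. Within slides 3, 4 and 5, A_70_P016896 differed by 0.89, 0.39 and -0.16, and A_70_P046971 by -0.54, 0.05 and -0.10.

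**Figure D2:**
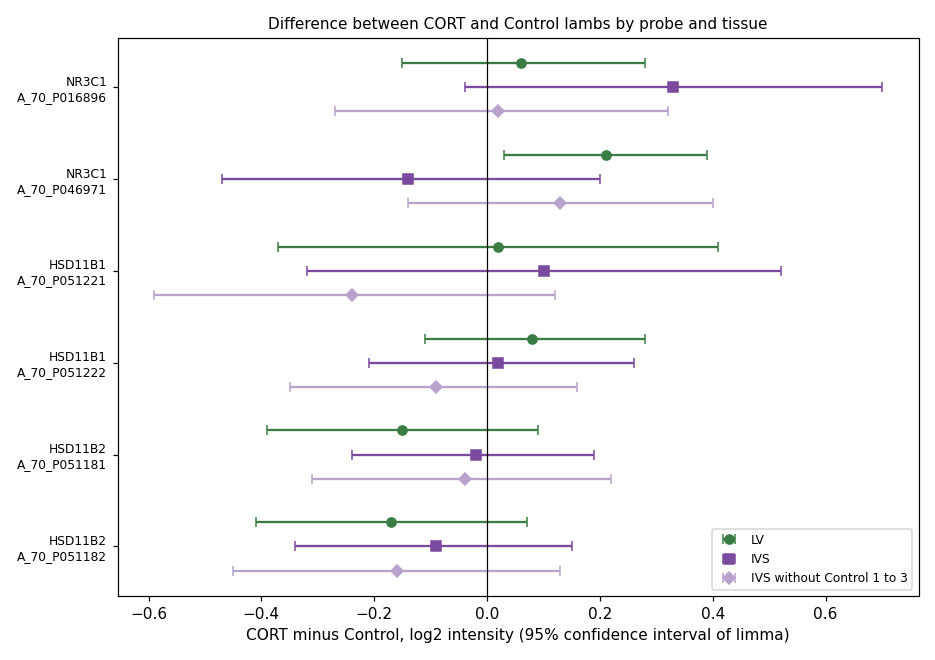
CORT minus Control difference in log2 intensity (horizontal axis) of each probe with its 95% confidence interval from limma, in the LV (green circles), in the IVS (purple squares) and in the IVS without Control lambs 1 to 3 (pale diamonds). Only the interval of A_70_P046971 in the LV leaves out 0, and without the 3 lambs the IVS difference of A_70_P016896 goes from 0.33 to 0.02.

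The difference between the NR3C1 probes within an array was then followed. Its zero has no meaning, since 2 probes differ in how well they bind, but its change between arrays can be read. In the LV it spanned -0.34 to 0.32 among Control lambs (median 0.12) and -0.33 to 0.72 among CORT lambs (median 0.11). In the IVS it was 1.73, 1.75 and 1.45 in Control lambs 1, 2 and 3 and between -0.21 and 0.59 in the other 13 lambs. The Control and CORT means in the IVS were 0.69 ± 0.81 and 0.22 ± 0.21 (SD, n = 8 each), a difference of -0.47 (two-sided exact permutation p = 0.159). It became 0.11 without the 3 lambs (exact permutation p = 0.417), 0.07 without the 6 arrays that stand apart (exact permutation p = 0.667), and was 0.06 within slide 5.

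**Figure D3:**
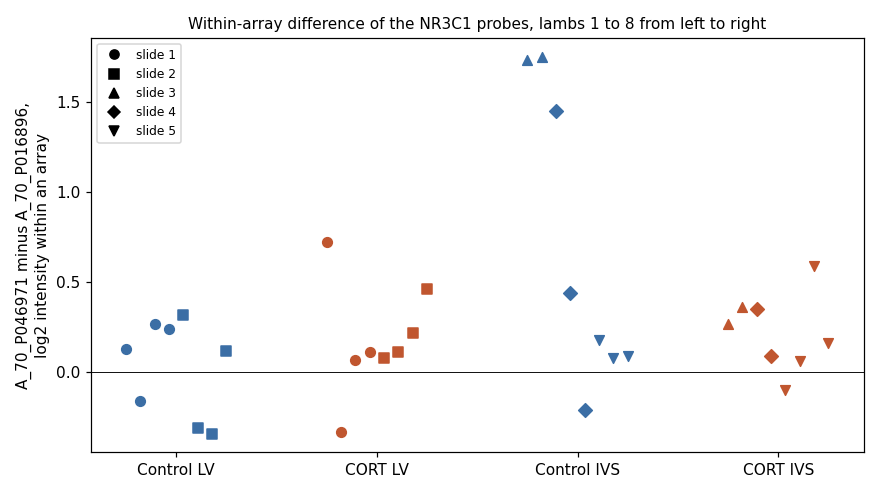
Within-array difference in log2 intensity between A_70_P046971 and A_70_P016896 (vertical axis) for every lamb of the 4 groups, lambs 1 to 8 from left to right, with the marker giving the slide. The values of 1.73, 1.75 and 1.45 of Control IVS lambs 1, 2 and 3 lie apart from all other arrays, which stay between -0.34 and 0.72.

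Across lambs, the 2 NR3C1 probes did not rise and fall together. In the LV the correlation of their log2 levels over 16 lambs was r = 0.02 (permutation p = 0.95) and rho = 0.00 (permutation p = 1), and r = -0.44 without the 2 lambs farthest from the median of A_70_P016896. Within Control and CORT lambs r was 0.19 and -0.37, and within slides 1 and 2 it was 0.08 and -0.14. In the IVS r was -0.44 (permutation p = 0.086) and rho -0.16 (permutation p = 0.54), with r = -0.14 without the 2 farthest lambs. The negative sign rested on Control lambs 1, 2 and 3, since over the other 13 lambs r was 0.58. Within Control and CORT lambs of the IVS r was -0.46 and 0.18, and within slide 5 it was 0.25. Slides 3 and 4 hold too few arrays for a value.

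The HSD11B1 probes rose and fell together. They had r = 0.92 in the LV and 0.89 in the IVS, with rho of 0.92 and 0.89, and r of 0.91 and 0.86 without the 2 farthest lambs. Permutation gave p = 1e-05 for either r, which is the smallest that 100000 resamples can give, and an adjusted p = 2e-05 over the 6 correlations. Within the treatment groups r lay between 0.87 and 0.97, and within slides 1, 2 and 5 it was 0.89, 0.93 and 0.86. The overlapping HSD11B2 probes had r = 0.90 and rho = 0.85 in the LV (permutation p = 1e-05 each) and r = 0.61 and rho = 0.63 in the IVS (permutation p = 0.011 and 0.010, adjusted p = 0.016 and 0.015). In the IVS CORT lamb 6 read 7.21 on A_70_P051181 and 6.57 on A_70_P051182, and without the 2 farthest lambs r was 0.91. Within Control and CORT lambs r was 0.97 and 0.60 in the LV and 0.93 and 0.23 in the IVS, and within slides 1, 2 and 5 it was 0.98, 0.82 and 0.28. For the NR3C1 probes the adjusted p was 0.95 in the LV and 0.10 in the IVS.

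Genes with 2 named probes past the brightness limit give the scale for these values. Over 273 such genes in the LV and 276 in the IVS, the median r between the probes was 0.88. In the LV 14 of them (5.13%) had a lower r than the NR3C1 probes, and in the IVS 0 did. These correlations share the arrays and the normalization, and some of the pairs overlap in sequence as those of HSD11B2 do.

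**Figure D4:**
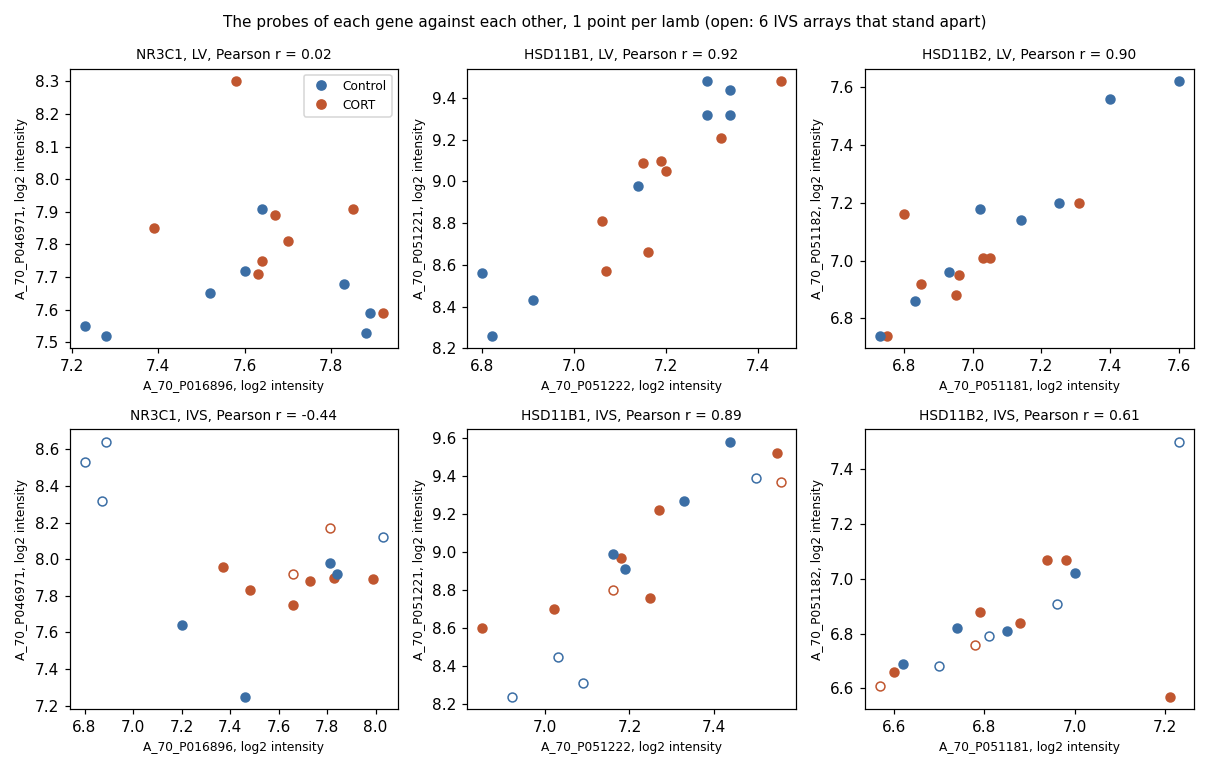
The 2 probes of each gene against each other in log2 intensity, 1 point per lamb, with the LV above and the IVS below; blue points are Control, orange points CORT, and open points the 6 IVS arrays that stand apart. HSD11B1 follows a line in both tissues (r = 0.92 and 0.89), while NR3C1 shows none in the LV (r = 0.02) and in the IVS has Control lambs 1 to 3 alone at the upper left (r = -0.44).

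HSD11B1, the enzyme that regenerates cortisol, did not pass the test in either tissue on either probe. On A_70_P051221 the log2 level in the LV spanned 8.26 to 9.48 among Control lambs (median 9.15) and 8.57 to 9.48 among CORT lambs (median 9.07). Control lambs 2, 3 and 4, at 8.56, 8.26 and 8.43, lay below every CORT lamb, while the other 5 Control lambs lay between 8.98 and 9.48. The means were 8.97 ± 0.49 and 9.0 ± 0.30 (SD, n = 8 each), a difference of 0.02 with a 95% confidence interval from -0.37 to 0.41, or 0.774 to 1.33 as a fold (exact permutation p = 0.910, limma adjusted p = 0.999). A_70_P051222 showed the same lambs at the bottom, at 6.80, 6.82 and 6.91, where the other Control lambs lay between 7.14 and 7.34. Its means were 7.12 ± 0.24 and 7.20 ± 0.13, a difference of 0.08 (SE 0.092, 95% confidence interval -0.11 to 0.28, exact permutation p = 0.396, limma adjusted p = 0.999). On both probes the 3 low Control lambs share slide 1, which gave differences of 0.26 and 0.22, while slide 2 gave -0.22 and -0.06.

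In the IVS, A_70_P051221 spanned 8.24 to 9.58 among Control lambs (median 8.95) and 8.60 to 9.52 among CORT lambs (median 8.88). The lowest values were again those of 3 Control lambs, here numbers 1, 2 and 3 at 8.24, 8.31 and 8.45, the same arrays that were extreme for NR3C1. The difference was 0.10 (SE 0.20, 95% confidence interval -0.32 to 0.52, exact permutation p = 0.646, limma adjusted p = 0.993). Without these 3 arrays it changed sign to -0.24 (exact permutation p = 0.218). A_70_P051222 differed by 0.02 (SE 0.11, 95% confidence interval -0.21 to 0.26, exact permutation p = 0.846, limma adjusted p = 0.997) and by -0.09 without the 3 arrays (exact permutation p = 0.450). Without the 6 arrays that stand apart the differences were -0.23 and -0.09. Within slides 3, 4 and 5 the differences were 0.81, -0.36 and -0.07 on A_70_P051221, and 0.35, -0.27 and -0.03 on A_70_P051222.

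HSD11B2, the enzyme that inactivates cortisol, was read close to background. The median uncorrected intensity of its probes was 104 and 109 in the LV and 95.8 and 95.3 in the IVS, which is 2.72, 2.84, 2.01 and 2.03 times the local background. The corresponding ratios for A_70_P051221 of HSD11B1 were 11 in the LV and 8.78 in the IVS. The other HSD11B1 probe, A_70_P051222, was nearly as dim as HSD11B2, at 2.89 and 2.53. The NR3C1 probes were at 4.52 and 3.46 (A_70_P016896) and at 4.97 and 4.66 (A_70_P046971). In Control IVS both HSD11B2 probes were well above background on 8 of 8 arrays, by the scanner software's call, and in CORT IVS on 5 (A_70_P051181) and 4 (A_70_P051182) of 8. These counts did not differ past the test (two-sided Fisher's exact test, p = 0.200 and 0.0769). The authors' filtered matrix holds both probes in the LV and neither in the IVS.

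In the LV, A_70_P051181 spanned 6.73 to 7.60 among Control lambs (median 7.08) and 6.75 to 7.31 among CORT lambs (median 6.96). A_70_P051182 ran from 6.74 to 7.62 (median 7.16) and from 6.74 to 7.20 (median 6.98). Control lambs 7 and 8 were the highest on both, at 7.40 and 7.60 and at 7.56 and 7.62, and every CORT lamb lay within the Control range. The differences were -0.15 (SE 0.11, 95% confidence interval -0.39 to 0.09, exact permutation p = 0.234) and -0.17 (SE 0.11, 95% confidence interval -0.41 to 0.07, exact permutation p = 0.189), with a limma adjusted p = 0.999 for both. Without Control lamb 4, the lowest of its group, A_70_P051182 differed by -0.23, with an unadjusted limma p under 0.05 and an exact permutation p = 0.0648. Lambs 7 and 8 lie on slide 2, where the differences were -0.27 and -0.31, against -0.04 and -0.03 on slide 1. With the scanner's processed signal over its 75th percentile in place of the quantile normalized intensity, the differences were -0.34 and -0.43.

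In the IVS the level of A_70_P051181 spanned 6.62 to 7.23 among Control lambs (median 6.83) and 6.57 to 7.21 among CORT lambs (median 6.83). A_70_P051182 lay between 6.68 and 7.50 (median 6.81) and between 6.57 and 7.07 (median 6.80). The differences were -0.02 (SE 0.10, 95% confidence interval -0.24 to 0.19, exact permutation p = 0.836, limma adjusted p = 0.997) and -0.09 (SE 0.12, 95% confidence interval -0.34 to 0.15, exact permutation p = 0.470, limma adjusted p = 0.993). Without the 6 arrays that stand apart they were 0.10 and 0.02, and within slides 3 to 5 they lay between -0.12 and 0.01 and between -0.22 and -0.03. Control lamb 8 decided the second value, which was -0.01 without it.

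Whether the difference between CORT and Control was itself different in the septum was tested over all 32 arrays, normalized together. Neither this test nor the comparison of tissues below took account of the lamb, though by the study's methods both tissues came from the same hearts. For A_70_P046971 the IVS difference minus the LV difference was -0.35 (SE 0.18, 95% confidence interval -0.72 to 0.02), and with slide as a block it was -0.38, with an unadjusted limma p under 0.05. This probe was taken from the study's list of genes changed in these LV samples. The LV part of its contrast is therefore not independent of that choice, and its p is not independent evidence. Without the 3 Control IVS arrays the contrast of this probe was -0.08, and without the 6 arrays that stand apart -0.05. For A_70_P016896 it was 0.25 (SE 0.20, 95% confidence interval -0.17 to 0.67), -0.04 without Control IVS lambs 1 to 3 and 0.03 without the 6 arrays. The enzyme probes gave between -0.07 and 0.14, each with an interval that holds 0. The adjusted p was 1 for every member. Of the 11520 probes tested, 233 (2.02%) had an unadjusted p under 0.05 for this contrast and 0 (0%) an adjusted p under 0.05 by limma.

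Levels in the 2 tissues were compared on the same joint scale, with slide as a random block, because every slide holds a single tissue and slide and tissue cannot be told apart. For HSD11B2 the IVS was lower than the LV on both probes, by a log2 difference of -0.26 (SE 0.13, limma adjusted p = 0.439) on A_70_P051181 and -0.30 (SE 0.13, limma adjusted p = 0.382) on A_70_P051182. Both had an unadjusted limma p under 0.05 and neither passed after adjustment. The local background beside these probes had a median of 38.5 and 39.8 in the LV and 51.0 and 47.5 in the IVS, and its part in the difference was not tested. On the 3 slides scanned on the same day (1, 2 and 5) the differences were -0.11 and -0.14, with an unadjusted limma p above 0.05 for both. Without the 6 IVS arrays that stand apart they were -0.25 and -0.30, and with the processed signal over its 75th percentile -0.81 and -1.05, with an unadjusted limma p under 0.05 in each case. For NR3C1 they were -0.25 (SE 0.17, 95% confidence interval -0.60 to 0.09) on A_70_P016896 and 0.13 (SE 0.15, -0.18 to 0.43) on A_70_P046971, and for HSD11B1 -0.22 (SE 0.24, -0.71 to 0.28) and -0.04 (SE 0.12, -0.29 to 0.21). Over all probes, 1292 of 11520 (11.2%) had an unadjusted p under 0.05 and 17 (0.148%) an adjusted p under 0.05.

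On that joint scale the 4 groups fell in the following order. A_70_P016896 was highest in CORT LV (7.73 ± 0.16), then Control LV (7.67 ± 0.26), CORT IVS (7.63 ± 0.20) and Control IVS (7.32 ± 0.47). A_70_P046971 was highest in Control IVS (7.99 ± 0.45), then CORT LV (7.91 ± 0.21), CORT IVS (7.85 ± 0.12) and Control LV (7.70 ± 0.13). The HSD11B2 probes ran from Control LV (7.15 ± 0.31 and 7.20 ± 0.32) through CORT LV (7.00 ± 0.19 and 7.02 ± 0.16) and Control IVS (6.84 ± 0.18 and 6.88 ± 0.25) to CORT IVS (6.82 ± 0.19 and 6.79 ± 0.18). A_70_P051221 of HSD11B1 ran from CORT LV (9.07 ± 0.30) to Control IVS (8.82 ± 0.51), and all group means of A_70_P051222 lay between 7.16 and 7.25. Neighbours in each order lay closer than the larger of their SDs, apart from CORT IVS and Control LV on A_70_P046971, which were not tested against each other.

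The named genes whose pattern was most like each probe were found over the 32 arrays, from log2 levels less the mean of their group. These are descriptions, since the arrays share their normalization. For A_70_P016896 they were PPP1R12A, a subunit of myosin phosphatase, with r = 0.87 and 0.84 on its probes, and NR3C2, the mineralocorticoid receptor, with r = 0.85. Without the 6 arrays that stand apart these were 0.84, 0.85 and 0.79. For A_70_P046971 the likest were CD9, a membrane tetraspanin (r = 0.77 and 0.70 on its probes, 0.72 and 0.60 without the 6 arrays), and PPP2CA, the catalytic subunit of protein phosphatase 2A (r = 0.70 and 0.51). The 2 probes assigned to NR3C1 shared none of these likest genes. Their low correlation on the same arrays made this likely, so it is not a separate result.

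HSD11B1 was most like LOC100037663 (r = 0.71 on both of that gene's probes) and GNG11, a G-protein gamma subunit (r = 0.69), on A_70_P051221. On A_70_P051222 it was most like PRND (r = 0.72), GNG11 (r = 0.67) and TF, transferrin (r = 0.57). GNG11 was among the likest 3 for both probes, and its r without the 6 arrays was 0.67 and 0.72. IGF1, insulin-like growth factor 1, was among the likest 3 for both HSD11B2 probes (r = 0.68 and 0.69). The others for A_70_P051181 were DCN, decorin, of fibroblasts (r = 0.65), and TNFRSF11B, osteoprotegerin (r = 0.64). For A_70_P051182 they were CLDN1, a tight junction claudin (r = 0.70), and MYD88, an adaptor of innate immune receptors (r = 0.70).

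Other genes of glucocorticoid action were taken from lists of chaperones, co-regulators, steroid receptors and supply, and target genes. Of 108 listed genes, 38 have a named probe on the array, and 28 passed the brightness limit in the LV and 27 in the IVS. FKBP5 and TSC22D3, widely used target genes, H6PD, which supplies HSD11B1 with its cofactor, the co-repressor NCOR1 and the chaperone PPID have no named probe. The study's list of genes changed in the LV, made without adjustment, holds NCOR1 as lower in CORT. It holds PPID and the chaperone FKBP4, which also has no named probe here, as higher. These genes are therefore not in the counts that follow. In the LV 1 of the 28 was higher and 1 lower in CORT by unadjusted limma p, beside 3.85% of all probes, and in the IVS 1 of 27 was higher and 1 lower, beside 3.59%. No listed gene passed after adjustment over all probes. The median log2 difference was 0.027 in the LV and 0.052 in the IVS, beside 0.0015 and -0.0082 over all probes tested.

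The higher gene was RGS2, a glucocorticoid-induced inhibitor of G-protein signalling, in both tissues. It read 7.32 ± 0.14 in Control LV and 7.47 ± 0.13 in CORT LV (SD, n = 8 each), a difference of 0.15 (exact permutation p = 0.0404, limma adjusted p = 0.999), and 7.39 ± 0.21 and 7.63 ± 0.23 in the IVS, a difference of 0.24 (exact permutation p = 0.0527, limma adjusted p = 0.993). Without Control IVS lambs 1 to 3 the latter was 0.15 (exact permutation p = 0.260), and without the 6 arrays that stand apart 0.23 (exact permutation p = 0.167). RGS2, JUN and TXNIP have 2 tested probes each, and the values of the dimmer probe are not given here. For RGS2 in the LV the study lists a larger difference than the brighter probe gave. Since that list comes from these LV samples, the LV p of RGS2 is not independent evidence. In the LV the lower gene was JUN, a subunit of the AP-1 factor that the receptor binds, with a difference of -0.19 (exact permutation p = 0.0527, limma adjusted p = 0.999). In the IVS JUN differed by 0.52 (exact permutation p = 0.0883), by 0.14 without the 3 lambs (exact permutation p = 0.713), and by -0.24 without the 6 arrays (exact permutation p = 0.0476). The lower gene in the IVS was TXNIP, a thioredoxin-binding protein, at 15.30 ± 0.73 in Control and 14.63 ± 0.18 in CORT lambs. Its difference was -0.66 (SE 0.24, exact permutation p = 0.0146, limma adjusted p = 0.993), -0.29 without the 3 lambs (exact permutation p = 0.107) and -0.23 without the 6 arrays (exact permutation p = 0.286). PER1, a clock gene and glucocorticoid target, is named here after its values were seen. In the IVS it read 6.74 ± 0.066 in Control and 6.86 ± 0.10 in CORT lambs (SD, n = 8 each), with 7 of the 8 CORT lambs above the Control mean. Its difference of 0.12 had an exact permutation p = 0.0172, an unadjusted limma p above 0.05 and a limma adjusted p = 0.993. It was 0.09 without the 3 lambs (exact permutation p = 0.106) and without the 6 arrays (exact permutation p = 0.210), and 0.09 in the LV (exact permutation p = 0.221).

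The mineralocorticoid receptor (NR3C2) was well above background on all arrays of both tissues. Its probe A_70_P041846 read 12.56 ± 0.28 in Control LV (n = 7, because 1 spot was marked as an outlier and dropped from the fit) and 12.58 ± 0.16 in CORT LV (n = 8), a difference of 0.02 (exact permutation p = 0.877). Its other probe read 11.22 ± 0.24 and 11.24 ± 0.18 (n = 8 each), a difference of 0.03 (exact permutation p = 0.783). In the IVS the differences were 0.26 (exact permutation p = 0.295) and 0.41 (exact permutation p = 0.182), with Control SDs of 0.65 and 0.77 against 0.22 and 0.33 in CORT lambs. Without the 6 arrays that stand apart they were -0.02 and 0.09. Without Control lambs 1 to 3 that on A_70_P041846 was -0.10 (exact permutation p = 0.624) and that on the other probe -0.08 (exact permutation p = 0.712), where the difference on A_70_P016896 of NR3C1 had gone from 0.33 to 0.02.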

How the data were processed

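The authors deposited, for every spot, the intensity and local background (arbitrary units) that Agilent Feature Extraction 10.1.1.1 had read, and 1 matrix per tissue of normalized log2 values made by the authors with limma. Here mean spot intensities of 32 arrays were corrected with normexp (offset 50), quantile normalized over the 16 arrays of a tissue, or over all 32 for comparisons between tissues, and averaged by probe on the log2 scale. Control spots and spots marked as outliers were left out. Tests took in the probes that exceeded the 95th percentile of the negative controls by over 10% on 8 or more arrays.

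Groups were compared with limma 3.58.1 (lmFit, eBayes, two-sided, Benjamini-Hochberg over all probes) in R 4.3.3 with statmod 1.5.0, and single probes also by an exact permutation test over 12870 assignments. The script was tested on simulated data. Precision is limited by the number of arrays. Median spot intensities ranged from 129 to 318 over the arrays, and 59.7 to 80.4% of the probes were well above background.

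The files and a table of 35057 sheep genes name 1387 probes; 11 listed genes were matched by older names. The members and gene lists were chosen with earlier results of these data known. Named are all member probes, the 3 likest named probes of each, pathway genes with an unadjusted p under 0.05, and NR3C2, FKBP5, TSC22D3, H6PD, NCOR1 and PPID where they have a tested probe. P-values measure the spread between these lambs, some of which may share a mother. Alternatives varied the background correction, normalization, brightness limit, slide, replicate block, array weights and lambs left out. Leaving out Control IVS lambs 1 to 3 or the 6 arrays that stand apart, and using 3 slides of a single scan day, were chosen after seeing the data.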

Additional observations from a re-analysis of the deposited data

Results flagged for a closer look

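In 2 of the 24 sets of 8 lambs checked (6 probes in 4 groups), a single lamb lay farther from the others than Dixon's 95% limit allows, where about 1.2 are flagged by chance. On NR3C1 A_70_P046971, CORT LV lamb 1 was at 8.30, with the next highest lamb at 7.91. Without it the LV difference was 0.14 instead of 0.21. On HSD11B2 A_70_P051182, Control IVS lamb 8 was at 7.50, with the next highest at 7.02; this array is among the 6 that stand apart. Without it the IVS difference was -0.01 instead of -0.09.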

How the results depend on the processing

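Other settings moved no LV member probe across the unadjusted limit of 0.05, except that of leaving out Control lamb 4. Over 11 alternatives A_70_P046971 of NR3C1 differed by 0.19 to 0.31, and without each lamb in turn by 0.14 to 0.25, always with an unadjusted p under 0.05. These settings reuse the LV arrays behind the study's list from which this probe was taken, so they add no independent evidence. The LV difference of HSD11B1 A_70_P051221 was -0.04 with cyclic loess and -0.08 to 0.09 without single lambs, and that of HSD11B2 A_70_P051182 was -0.23 to -0.11 without single lambs. The processed signal over its 75th percentile gave -0.34 and -0.43 for HSD11B2 in the LV, and in the IVS 0.74 for A_70_P016896, -0.20 for A_70_P046971 and -0.35 for A_70_P051182. In the IVS, arrays weighted by quality gave 0.003 for A_70_P046971, -0.07 and -0.03 for the HSD11B1 probes A_70_P051221 and A_70_P051222, and 0.07 for HSD11B2 A_70_P051181; cyclic loess gave the last 0.02, and slide as a block gave A_70_P051222 -0.01. Leaving out Control lambs 1 to 3 gave 0.13 (A_70_P046971), -0.24 and -0.09 (HSD11B1), and leaving out the 6 arrays that stand apart gave 0.17, -0.23, -0.09 and, for HSD11B2, 0.10 and 0.02. Without single lambs the IVS differences ran from 0.25 to 0.42 for A_70_P016896, from -0.25 to -0.05 for A_70_P046971 (without Control lambs 5 and 2), from 0.01 to 0.20 for A_70_P051221, from -0.03 to 0.08 for A_70_P051222 and from -0.07 to 0.03 for A_70_P051181. The cause of these shifts was not tested.

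The tissue interaction of A_70_P046971 was -0.38 with slide as a block, that of A_70_P016896 was -0.04 without Control IVS lambs 1 to 3, that of A_70_P051221 was -0.26 without them and -0.25 without the 6 arrays, and that of A_70_P051222 was 0.005 with cyclic loess. The IVS minus LV difference of A_70_P016896 was -0.22 without the slide block (within the unadjusted limit) and 0.05 on the slides of a single scan day, where the HSD11B1 probes were at 0.02 and 0.08 and the HSD11B2 probes at -0.11 and -0.14. Without Control IVS lambs 1 to 3 that difference was -0.02 for A_70_P046971, 0.03 for A_70_P051222 and -0.27 and -0.28 for HSD11B2, without the 6 arrays it was -0.09 for A_70_P046971, and without background correction it was -0.28 for A_70_P051181, all outside the limit. The IVS change of the difference between the NR3C1 probes was 0.06 within slide 5, 0.11 without the 3 lambs and 0.07 without the 6 arrays.

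Over all probes the LV count of 444 was 734 with weighted arrays. The IVS count of 419 was 879 with slide as a block, 241 without Control lambs 1 to 3 and 260 without the 6 arrays. It lay between 228 and 852 without single lambs, with Control lambs 1, 2 and 3 at 261, 253 and 228 and Control lambs 5 and 8 at 708 and 852. With the replicate number as a block the IVS count was 639 and the LV count 536. Same-numbered CORT and Control lambs deviated together (r over 0.1) in 3 of 8 LV and 6 of 8 IVS pairs. Their arrays share a slide, apart from number 5 in the IVS (r = -0.15), so number and slide cannot be told apart here. The labels do not pair CORT with Control lambs, and the numbers were not taken to pair them. With the replicate number across tissues as a random block, in place of slide, A_70_P016896 was lower in the IVS by a difference of -0.22, within the limit. The replicate block changed no other call of a member. The labels do not say that LV and IVS samples of a number come from the same lamb. When LV and IVS deviations were correlated, the own number matched best for 2 of 8 Control and 4 of 8 CORT numbers.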
